A study of Homo sapiens with 6 samples.

Results

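The genes described are 42 genes of S phase and DNA replication in LX-2, an immortalised human hepatic stellate cell line, measured with and without bone morphogenetic protein 9 (BMP9). They are listed by function: the replicative helicase, origin licensing and firing factors, polymerases, clamp and clamp loader, nucleotide supply, cyclin E and E2F. No measured value enters the rule, but the list was drawn up with earlier results of these data known. All 42 were among the 18132 genes with at least 1 probe set assigned to a single gene, and they had 108 such probe sets. In both groups LX-2 cells were grown in serum-containing medium and starved of serum for 12 h. Recombinant human BMP9 then stood in the medium for 24 h at 50 ng/ml in the treated group, and control received 0 ng/ml. Each group had 3 samples, each on 1 Affymetrix 3′ expression array. The labels call them biological replicates and say nothing of separate cultures, so every p-value reflects only how far these arrays spread, which may be technical.

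DNA replication is prepared in G1, when the origin recognition complex, CDC6 and CDT1 load the MCM helicase onto DNA. At the start of S phase the kinase CDC7 with DBF4 helps turn the loaded helicase into an active one by recruiting CDC45 and the GINS complex. Polymerases then copy the strands behind it, held by the ring protein PCNA. Many of these genes are transcribed by E2F factors once the retinoblastoma protein is inactivated, and their transcripts are low in cells that have left the cycle. Hepatic stellate cells proliferate when they become activated in an injured liver, and serum withdrawal slows the cycle of cultured lines.

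Promoters of 36 members were in the RefSeq table (build GRCh38.p14); MCM4, MCM5, GINS4, RPA2, RPA3 and CCNE2 were not. In the 250 bases before the transcription start, a core E2F motif, TTTGGCGC or TTTCGCGC on either strand, was present in 8 of the 36 (22.2%). Among 14425 genes of the array with a promoter in the table, 1.69% held it, and among the 27305 genes with a promoter 1.2%. In the comparison lists described below, it was in 11.1% of other replication genes and 9.09% of G2 and mitosis genes with a promoter. The 8 were MCM6, MCM7, POLA1, POLA2, POLE, UHRF1, E2F1 and E2F2. These letter matches show what the members share in sequence and are not evidence of binding. Of the 8, the sequences below are those with the highest difference between BMP9 and control (POLA2), the lowest (POLE) and the one nearest 0 (MCM6), and capitals mark the E2F motif. They are read 5′ to 3′ on the gene's strand, POLA2 at chr11:65261712-65261961 (plus strand), MCM6 at chr2:135876444-135876693 (minus strand) and POLE at chr12:132687343-132687592 (minus strand).
POLA2: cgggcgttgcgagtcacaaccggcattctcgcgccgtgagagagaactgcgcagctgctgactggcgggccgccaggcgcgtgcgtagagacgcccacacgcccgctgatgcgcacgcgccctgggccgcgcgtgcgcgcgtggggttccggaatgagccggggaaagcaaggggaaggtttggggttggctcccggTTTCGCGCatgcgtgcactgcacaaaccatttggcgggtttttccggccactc
MCM6: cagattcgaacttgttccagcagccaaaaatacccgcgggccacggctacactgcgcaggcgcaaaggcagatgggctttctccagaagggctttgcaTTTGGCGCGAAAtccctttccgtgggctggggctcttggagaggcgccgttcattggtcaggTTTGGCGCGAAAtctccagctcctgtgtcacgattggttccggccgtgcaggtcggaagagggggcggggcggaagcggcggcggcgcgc
POLE: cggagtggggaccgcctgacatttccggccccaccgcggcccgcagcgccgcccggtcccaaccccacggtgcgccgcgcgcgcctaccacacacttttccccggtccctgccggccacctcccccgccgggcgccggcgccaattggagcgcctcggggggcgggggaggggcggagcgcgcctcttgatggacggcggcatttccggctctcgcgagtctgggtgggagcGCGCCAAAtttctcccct
The match began 53 bases before the start in POLA2 and 18 bases before it in POLE, where it lies on the opposite strand. MCM6 held 2 copies of a run that carries both motifs, overlapping on opposite strands, beginning 152 and 90 bases before the start. The CCAAT box, CCAAT on either strand, was in 55.6% of the members' promoters against 40.5% of those of array genes, and GGCGCC, a GC-rich motif bound by BMP-activated SMADs, in 41.7% against 26.7%. CCAAT was more frequent still in the other replication genes (61.1%) and the G2 and mitosis genes (81.8%). GGCGCC was in 33.3% and 36.4% of these lists. GGCGCC can overlap the E2F motif.

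Expression was deposited on a log2 scale after RMA, 1 value per probe set, and each gene was read from its probe set with the highest mean. The brightness of a probe set does not rank genes by RNA level, and the table holds no detection calls. Array medians lay between 3.55 and 3.57, and pairs of arrays correlated across genes with Pearson's r of 0.991 to 0.995. The treatment was seen in SMAD6, an inhibitor of BMP signalling, which rose by 3.01 on the log2 scale (SE 0.097, limma adjusted p = 3.97e-07). It was also seen in ID3, a BMP target that blocks basic helix-loop-helix factors, which rose by 1.63 (SE 0.11). ID4 rose by 0.99 (limma adjusted p = 8.43e-04) and ID2 by 1.21 (limma adjusted p = 0.0492), so 4 of 6 listed BMP response genes were called higher. The chosen probe set of ID1 differed by 0.14. The 9 stellate cell markers averaged 3.97 to 11.43 over the 6 arrays. In control VIM was the brightest at 11.62 ± 0.099, COL1A1 stood at 9.73 ± 0.16 and ACTA2, the dimmest, at 3.90 ± 0.082 (SD, n = 3). Of 9 stellate, 4 hepatocyte, 3 endothelial, 3 leukocyte and 3 cholangiocyte markers none passed the test, where 0.684% of all genes did. At an unadjusted limma p under 0.05 were 3 of the 9 stellate markers (33.3%), against 12.9% of all genes. They were DCN (-0.74) and VIM (-0.37), lower with BMP9, and HAND2 (0.30), higher, each without overlap. Also under it were ALB (-0.22) of the hepatocyte and EPCAM (0.34) of the cholangiocyte markers. The probe sets of the other 4 types averaged 2.09 to 6.91, overlapping the stellate range. Without detection calls this does not show their RNA to be present or absent.

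No S phase gene passed the test for a change with BMP9. Of 42 members, 0 rose and 0 fell at a limma adjusted p under 0.05, with adjustment over all 18132 genes, where 0.684% of all genes were called (0.232% higher and 0.452% lower). The smallest adjusted p of a member was 0.121, that of PCNA. At an unadjusted p under 0.05 there were 3 members, PCNA, MCM3 and CCNE2, or 7.14%, below the 12.9% of all genes. In 7 members (16.7%) the BMP9 and control arrays did not overlap, near the 18.8% of all genes: 5 were higher, against 10.3% of all genes, and 2 lower, against 8.49%. The differences were small: they ran from -0.24 to 0.30, and 23 of 42 were smaller than 0.1 in size, about as in all genes (10323 of 18132).

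The signs leaned one way all the same. The BMP9 mean was higher in 32 of 42 members (76.2%), against 54.7% of all genes, and the median difference was 0.072 against 0.014. The lean was not particular to the members. In the lists described below the share was 74.4% in other replication genes, 66.7% in G1 to S control genes and 63.0% in G2 and mitosis genes. Their medians were 0.042, 0.053 and 0.054. This lean is a description, since the genes share their samples and were tested singly. Its sign did not rest on 1 array: taking each gene's deviation from its own mean over the 6 arrays, the members' median was -0.021, -0.016 and -0.048 on the control arrays and 0.022, 0.015 and 0.023 on the BMP9 arrays. The control arrays thus all lay below the BMP9 arrays, with control replicate 3 lowest. Leaving out BMP9 replicate 1 lowered the members' median to 0.042, and leaving out control replicate 3 lowered it to 0.053. For comparison, all genes had medians of -0.0068, -0.0035 and -0.0058 on the control arrays and 0.00068, 0.0082 and 0.0070 on the BMP9 arrays.

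**Figure D1:**
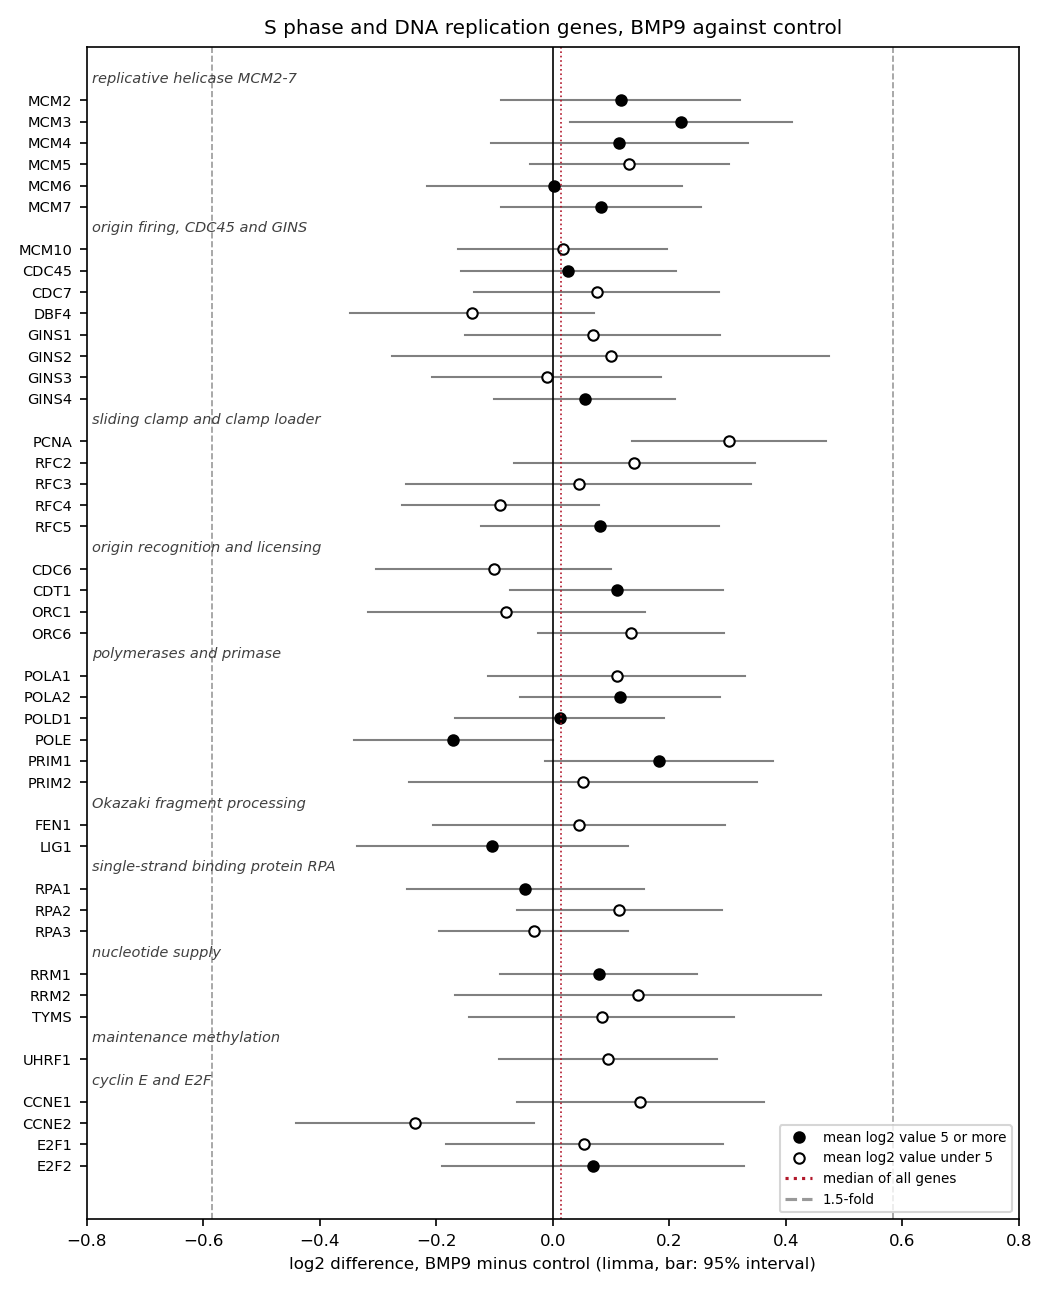
Log2 difference (BMP9 minus control, x axis) of the 42 members, grouped by role, with 95% intervals from limma; n = 3 arrays per group. Filled circles are genes with a mean log2 value of at least 5 and open circles dimmer ones. Every interval stays inside the dashed 1.5-fold lines. Points left of 0 turn positive when arrays are scaled to the poly-A controls, a shift that leaves 99.7% of all genes positive.

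What the arrays could resolve is given by the intervals. The 95% interval of a member's difference had a half-width of 0.15 to 0.38 (median 0.20), and all 42 intervals lay within 1.5-fold in either direction (0.58 on the log2 scale). Within 1.25-fold lay 26 of 42, and 11 of the 17 members with a mean log2 value of at least 5. Dim probe sets carry background signal and understate a change. Under the mean array median lay 18 members, among them PCNA, ORC6, DBF4, RFC2, RPA2 and CCNE1. For those the interval bounds the probe set's signal and not the transcript. RMA also equalises the arrays, so every difference is relative to the bulk of genes. The array's added control RNAs were lower on the BMP9 arrays: the hybridisation controls averaged 10.37 to 10.46 in control and 10.14 to 10.28 with BMP9, and the poly-A controls 6.25 to 6.37 and 5.46 to 5.94. The ACTB probe set difference, 5′ minus 3′, was 4.08 to 4.28 in control and 4.32 to 4.45 with BMP9. The same difference for GAPDH was 1.19 to 1.39 and 1.34 to 1.55, with overlap. In both genes the 5′ side was brighter than the 3′ side on every array, and these values were not used as a measure of RNA integrity. The part of these shifts between the groups in the members' lean was not tested. Scaled to the hybridisation controls, 15 members were called higher and the all-gene median moved to 0.22. Of all genes 24.8% were called higher and 93.6% had a higher BMP9 mean. Scaled to the poly-A controls, all 42 members were called higher and the all-gene median moved to 0.61. Of all genes 96.1% were called higher and 99.7% had a higher BMP9 mean. The SE was then 0.178 for every member, set by the control RNAs that all genes share. The adjusted p values of this setting thus rest on the spread of the control RNAs between arrays, not on separate evidence for each gene. Each scaling shifts every gene alike, so neither bears on the members' lean of 0.058 over the all-gene median. Turns of sign under these scalings, given below by gene, follow from that shared shift and are no trait of the single gene.

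**Figure D2:**
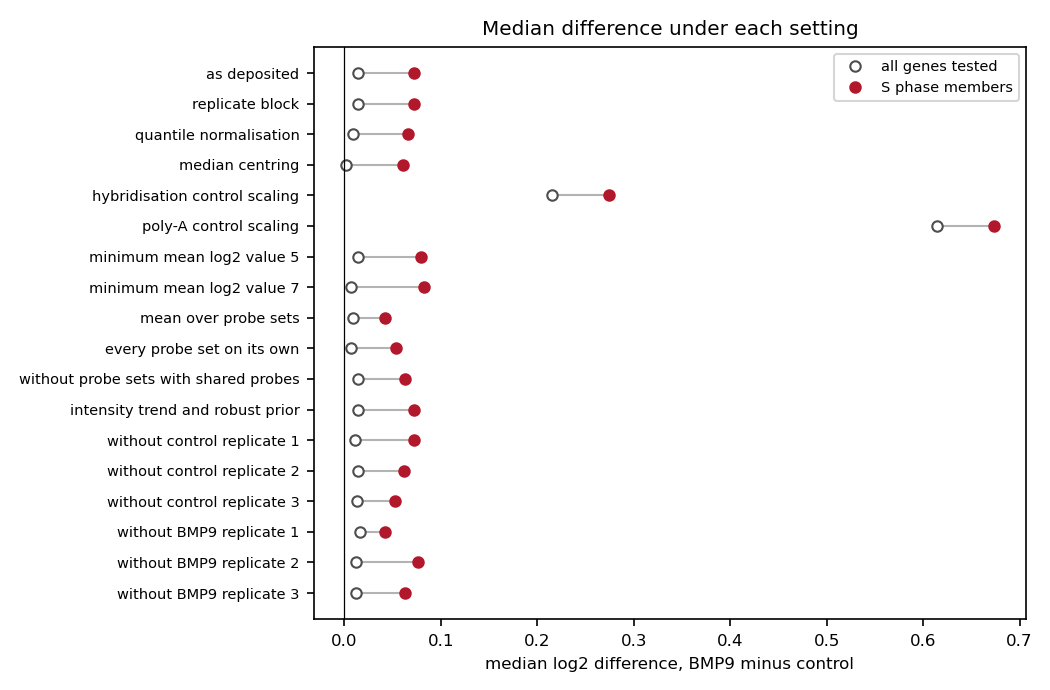
Median log2 difference, BMP9 minus control (x axis), of all genes tested (open circles) and of the S phase members (filled circles) under each setting (y axis). The members' median is right of that of all genes in every setting shown, by 0.026 without BMP9 replicate 1 to 0.076 at a minimum mean log2 value of 7, where 3 members are left. The block, the trend, median centring and both control scalings cannot move that distance.

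The helicase genes MCM2 to MCM7, whose products form the ring that unwinds DNA, all had a higher BMP9 mean, with a median difference of 0.12 and 0 of 6 past the test; MCM6 turned negative under quantile normalisation and median centring, MCM2 with the mean over probe sets and MCM7 without shared probes. MCM3 stood at 8.99, 9.08 and 8.85 on the control arrays and 9.12, 9.18 and 9.28 on the BMP9 arrays, a difference of 0.22 (SE 0.086, 95% interval 0.030 to 0.41, limma adjusted p = 0.320). The groups did not overlap, with BMP9 replicate 3 highest and control replicate 3 lowest. Its other probe set above 5 went from 6.73 ± 0.10 to 6.96 ± 0.037 (SD, n = 3), again without overlap, and of the dimmer pair 1 was higher without overlap (0.26) and 1 differed by -0.064. When the 1216 genes with a mean log2 value of at least 7 were tested alone, MCM3 passed (limma adjusted p = 0.0424), 1 of 3 members left, where 20.3% of genes passed (7.98% higher). Over all settings its adjusted p ranged from 7.12e-05, with poly-A scaling, to 0.587, and leaving out single arrays gave differences of 0.16 to 0.28.

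The other helicase genes did not separate. MCM5 stood at 4.73, 4.76 and 4.88 on the control arrays and 4.95, 4.94 and 4.86 on the BMP9 arrays (0.13, adjusted p by limma = 0.504), with 1 control array above the lowest BMP9 array. MCM2 stood at 5.09, 4.97 and 5.28 on the control arrays and 5.24, 5.29 and 5.16 on the BMP9 arrays, a difference of 0.12, smaller than the control SD of 0.16. A second MCM2 probe set of like brightness differed by -0.11, and the dimmest of its 4 by -0.29 without overlap (limma adjusted p = 0.203 over all probe sets), so the gene's probe sets gave no common direction. MCM7 stood at 7.28, 7.14 and 7.12 on the control arrays and 7.24, 7.24 and 7.31 on the BMP9 arrays (0.083), and its 4 probe sets, all above 5, differed by 0.083, -0.041, 0.20 and -0.074. MCM4 differed by 0.11 and MCM6 by 0.0030, with 5.18 ± 0.19 in control and 5.18 ± 0.019 with BMP9 (SD, n = 3).

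Origin licensing genes pointed both ways. ORC6, the smallest subunit of the origin recognition complex, stood at 2.36, 2.47 and 2.44 on the control arrays and 2.55, 2.58 and 2.54 on the BMP9 arrays (0.13, limma adjusted p = 0.470), and CDT1, which loads the helicase, at 5.80, 5.79 and 5.81 on the control arrays and 6.06, 5.83 and 5.85 on the BMP9 arrays (0.11, limma adjusted p = 0.621). In both the groups did not overlap. The CDT1 control arrays had an SD of 0.0088, BMP9 replicate 1 was the highest array, and its dimmer probe sets differed by -0.058 and 0.076. ORC1, an ATP-binding subunit, differed by -0.079 and CDC6, the loader ATPase, by -0.10, both positive with either control scaling. Of the firing factors MCM10, CDC45, the GINS genes, CDC7 and DBF4, 6 of 8 had a higher BMP9 mean, with a median of 0.041; with the mean over probe sets CDC7 and GINS4 turned negative, leaving 4 of 8. GINS4, a subunit of the helicase's GINS cofactor, stood at 5.08, 5.05 and 5.09 on the control arrays and 5.10, 5.17 and 5.12 on the BMP9 arrays, without overlap but only 0.055 apart, and differed by -0.23 in the probe set without shared probes. DBF4, the activating subunit of CDC7, stood at 2.40, 2.68 and 2.39 on the control arrays and 2.38, 2.42 and 2.27 on the BMP9 arrays (-0.14, limma adjusted p = 0.580; positive with either control scaling), where control replicate 2 alone lay above all others. The other DBF4 probe sets, dimmer still, differed by 0.13, -0.028, -0.054, 0.035, 0.013 and -0.0077, and the mean over the gene's probe sets by -0.0075. CDC45 differed by 0.027 in its brightest probe set and by 0.22 in another (5.79 ± 0.10 to 6.01 ± 0.15, SD, n = 3, limma adjusted p = 0.430 over all probe sets), and by -0.12 in a dimmer one. CDC7 differed by 0.076 in its brightest probe set and by -0.18 and -0.074 in the others. GINS1 differed by 0.069 in its brightest probe set and by 0.15 and 0.30 in the others, all under the array median. The 0.30 was without overlap (limma adjusted p = 0.324 over all probe sets), and the mean over the gene's probe sets differed by 0.17 (limma adjusted p = 0.294). MCM10 differed by 0.017, GINS2 by 0.10 and GINS3 by -0.0100, the last positive with either control scaling.

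Polymerase and primase genes included the lowest of the bright members. POLE, the catalytic subunit of the leading-strand polymerase, stood at 6.18, 6.11 and 6.06 on the control arrays and 5.86, 6.01 and 5.96 on the BMP9 arrays, a difference of -0.17 (SE 0.077, 95% interval -0.34 to 0.00043, limma adjusted p = 0.389) without overlap, which turned positive with either control scaling (0.031 and 0.43). It has 1 probe set, whose identifier marks probes shared with other transcripts. PRIM1, the catalytic primase subunit that starts each new strand, stood at 4.96, 5.12 and 4.97 on the control arrays and 5.34, 5.10 and 5.16 on the BMP9 arrays (0.18, limma adjusted p = 0.420), where control replicate 2 lay above the lowest BMP9 array. POLA2, the accessory subunit of the primase-bound polymerase, stood at 5.51, 5.59 and 5.53 on the control arrays and 5.55, 5.70 and 5.71 on the BMP9 arrays (0.12, limma adjusted p = 0.568), and its dimmer probe set differed by 0.26 without overlap. Over the 8 members with the motif the median difference was 0.076, 7 with a higher BMP9 mean, against 0.072 over the members whose promoter lacked it. POLA1 differed by 0.11, PRIM2 by 0.053 and POLD1, the catalytic subunit of the lagging-strand polymerase, by 0.012.

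PCNA, the sliding clamp, had the largest difference and the smallest p of the 42. It stood at 2.04, 2.03 and 2.10 on the control arrays and 2.27, 2.41 and 2.39 on the BMP9 arrays, or 2.06 ± 0.035 and 2.36 ± 0.075 (SD, n = 3), a difference of 0.30 (SE 0.075, 95% interval 0.14 to 0.47, limma adjusted p = 0.121). Every BMP9 array lay above every control array, with BMP9 replicate 1 nearest the control group. These values lie well under the array median and under the average of the background GC probe sets on every array, and are not known to be above background. The array medians (3.55 to 3.57) lay under that average too (3.71 to 3.78), so the same limit holds for all 18 members under the median. The other PCNA probe set, as dim, differed by 0.019 (2.15 ± 0.020 and 2.17 ± 0.039). Across settings its adjusted p ran from 2.18e-05, with poly-A scaling, to 0.345, and it passed only when arrays were scaled to the control RNAs. Of the clamp loader subunits RFC2 stood at 3.10, 3.36 and 3.25 on the control arrays and 3.46, 3.25 and 3.43 on the BMP9 arrays (0.14, limma adjusted p = 0.566), with overlap. RFC5 stood at 6.38, 6.41 and 6.43 on the control arrays and 6.66, 6.33 and 6.47 on the BMP9 arrays (0.081), with BMP9 replicates 1 and 3 above all control arrays and replicate 2 below them, and its second bright probe set differed by -0.043. RFC3 differed by 0.045 and RFC4 by -0.090, the latter positive with either control scaling.

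**Figure D3:**
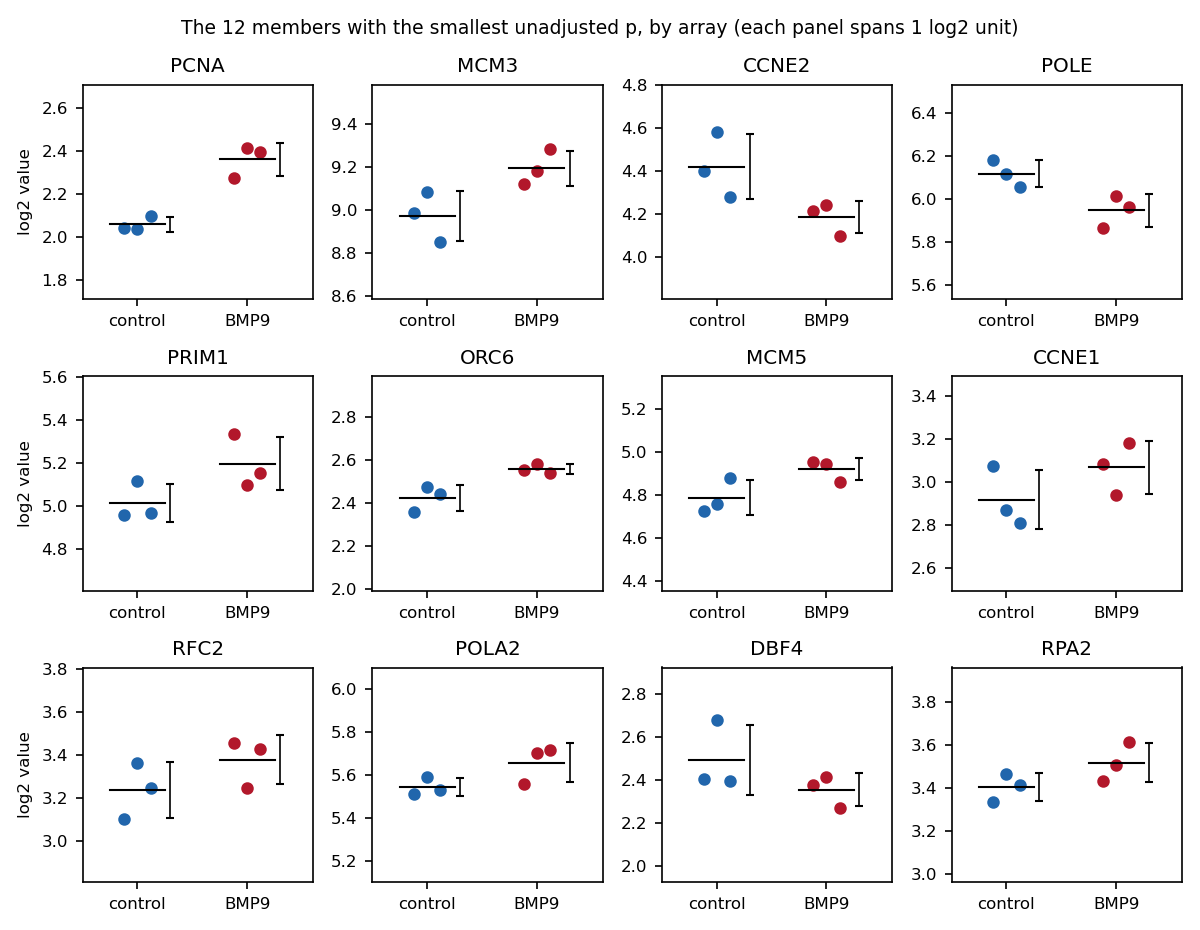
Log2 expression value (y axis, 1 log2 unit per panel) on each array for the 12 members with the smallest unadjusted p, in control (blue) and BMP9 (red); points are arrays, lines means, bars SD (n = 3). PCNA, MCM3 and ORC6 show BMP9 arrays above all control arrays and CCNE2 and POLE below, while the other 7 overlap. POLE turns positive with either control scaling and CCNE2 with the poly-A one. Of all genes 93.6% are positive with hybridisation and 99.7% with poly-A control scaling.

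None of the genes that finish and protect the new strand passed the test. LIG1, the ligase that joins Okazaki fragments, stood at 6.40, 6.56 and 6.76 on the control arrays and 6.54, 6.53 and 6.33 on the BMP9 arrays (-0.10, limma adjusted p = 0.724; positive with either control scaling), smaller in size than the control SD of 0.18. All 6 LIG1 probe sets had a mean of at least 5, and they differed by -0.10, -0.014, -0.080, 0.12, -0.035 and 0.13. FEN1, the flap nuclease, differed by 0.046. RPA2, of the complex that coats single-stranded DNA, stood at 3.33, 3.46 and 3.41 on the control arrays and 3.43, 3.51 and 3.61 on the BMP9 arrays (0.11, limma adjusted p = 0.586). The other RPA2 probe sets differed by 0.15 and -0.25, and the mean over the gene's probe sets by 0.0064. RPA1 and RPA3 differed by -0.047 and -0.033, both positive with either control scaling.

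The nucleotide supply genes RRM1, RRM2 and TYMS all had a higher BMP9 mean in their brightest probe sets, but the probe sets of RRM2 disagreed. RRM1, the large subunit of ribonucleotide reductase, stood at 8.81, 8.77 and 8.71 on the control arrays and 8.93, 8.77 and 8.83 on the BMP9 arrays (0.079, 95% interval -0.090 to 0.25, limma adjusted p = 0.706). Its 4 probe sets, all bright, were each higher, by 0.079, 0.11, 0.097 and 0.21, the last without overlap (5.39 ± 0.073 to 5.60 ± 0.13, SD, n = 3, limma adjusted p = 0.402 over all probe sets). RRM2, the regulated small subunit, differed by 0.15 with BMP9 replicate 1 lowest of all 6 arrays. Its other, dimmer probe set differed by -0.10, with every BMP9 array below every control array, and the mean over both by 0.022. TYMS, thymidylate synthase, differed by 0.084 and UHRF1, which carries DNA methylation through replication, by 0.096.

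Of the regulators, the cyclin E genes differed in sign. CCNE2 stood at 4.40, 4.59 and 4.28 on the control arrays and 4.21, 4.24 and 4.10 on the BMP9 arrays, a difference of -0.24 (SE 0.092, 95% interval -0.44 to -0.032, limma adjusted p = 0.320) that turned positive with poly-A scaling (0.36). All BMP9 arrays lay under all control arrays, and its dimmer probe set differed by -0.098. CCNE1 stood at 3.07, 2.87 and 2.81 on the control arrays and 3.08, 2.94 and 3.18 on the BMP9 arrays (0.15, limma adjusted p = 0.545), with overlap, and its other probe set differed by -0.13. E2F1 and E2F2, activators of S phase transcription, differed by 0.054 and 0.069. No test between the cyclin E genes was made.

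With every probe set tested on its own over 44988 probe sets, 0 of the members' 108 passed (0.436% of all did) and 10 had an unadjusted p under 0.05, against 11.4% of all probe sets. The groups did not overlap in 14 of them (13.0% against 17.3% of all), 10 higher and 4 lower. A higher BMP9 mean was seen in 69 (63.9%), against 52.4% of all. Of the 30 members with several probe sets, 8 had all of them higher, 1 all lower and 21 had both signs. Among the 7 with several probe sets above a mean of 5, MCM3, CDC45 and RRM1 had all of those higher, and MCM2, MCM7, RFC5 and LIG1 had both signs. In 11 members the chosen probe set's identifier marks shared probes. Without such probe sets 39 members remained, 27 with a higher BMP9 mean, and MCM7, GINS4, FEN1 and CCNE1 changed sign.

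**Figure D4:**
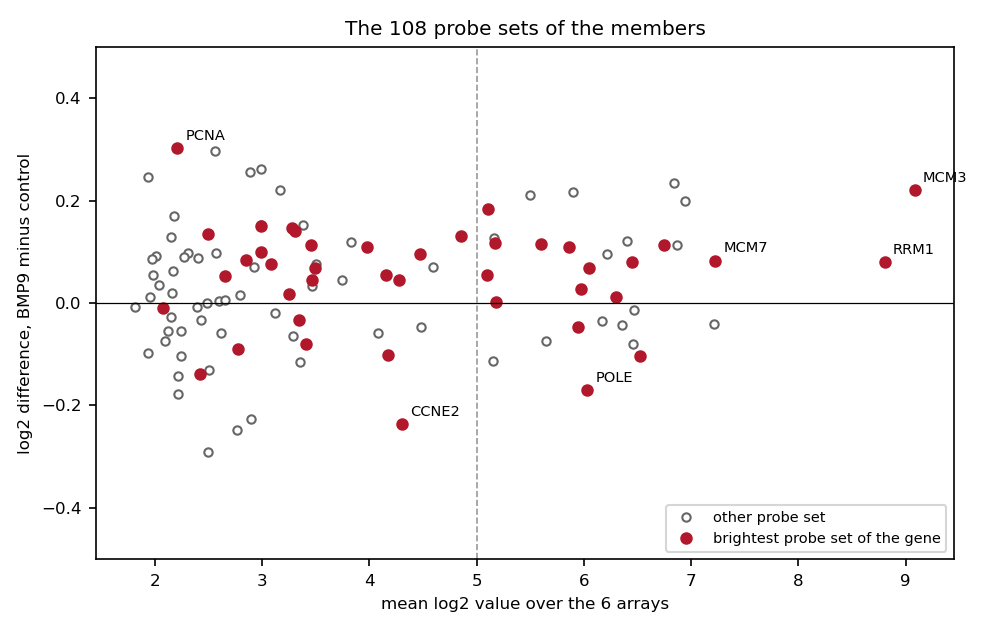
Mean log2 value over the 6 arrays (x axis) against the log2 difference, BMP9 minus control (y axis), for the 108 probe sets of the members; red points are each gene's brightest probe set and the dashed line is a mean of 5. No point lies further from 0 than PCNA at 0.30, with MCM3 and RRM1 the brightest. The labelled points below 0, CCNE2 and POLE, turn positive with poly-A scaling, which leaves 99.7% of all genes positive.

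No other gene of the cycle lists passed the test either. Of 44 further replication genes, 43 had a single-gene probe set, 0 rose and 0 fell, 5 had an unadjusted p under 0.05 and 32 had a higher BMP9 mean, with a median of 0.042. The smallest p values among them were those of ORC5 (-0.32) and ORC3 (-0.32), subunits of the origin recognition complex, SLBP, which binds histone mRNA (-0.25), and MCM9, a helicase of DNA repair (0.25), with limma adjusted p of 0.151 to 0.290. The first 3 turn positive with poly-A scaling. Of 21 G1 to S control genes 0 passed and 14 were higher (median 0.053); the smallest p was that of CCND2, cyclin D2, at 0.33 (7.30 ± 0.035 to 7.63 ± 0.14, SD, n = 3, limma adjusted p = 0.139), followed by CDK4 (-0.14, positive with either control scaling), RBL1 (0.15) and CKS1B (0.12). Of 27 G2 and mitosis genes 0 passed, 2 had an unadjusted p under 0.05 and 17 were higher (median 0.054). TPX2 (0.21) and KIF20A (0.17) were the highest-ranked and KIF11 (-0.14) and CENPE (-0.15), both positive with either control scaling, followed, with limma adjusted p of 0.342 to 0.478. No difference between these lists and the S phase members was tested.

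**Figure D5:**
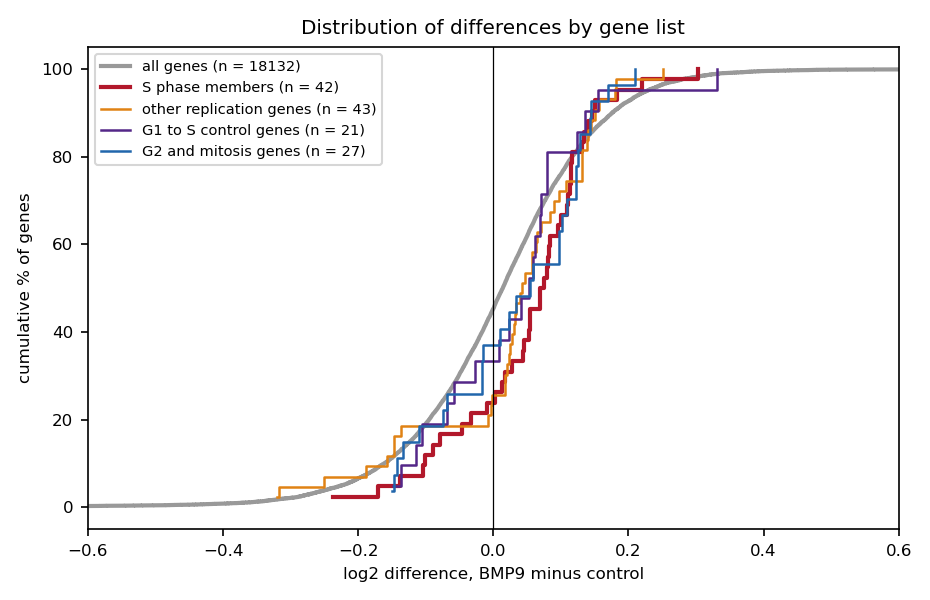
Cumulative percentage of genes (y axis) by log2 difference, BMP9 minus control (x axis), for all 18132 genes, the 42 members and 3 other cell cycle lists. The member curve lies right of that of all genes around 0 (medians 0.072 and 0.014) and the lists end between -0.32 and 0.33, while all genes run from -2.20 to 3.01, beyond the plotted axis.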

How the data were processed

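Each of the 6 arrays held 49395 probe sets. Per the submitters' processing notes the authors made the deposited log2 values with RMA, which subtracts background, quantile-normalises and summarises probes. The log base was inferred from the values, and the software version is not given in the sources used here. Platform annotation gave 44988 probe sets 1 gene symbol, 1832 several and 2473 none, beside 102 controls; 44961 matched a gene of GRCh38.p14. Each gene was read from its brightest single-gene probe set, with no filter. Groups were compared by limma 3.58.1 (R 4.3.3; lmFit and eBayes without covariates), with Benjamini-Hochberg adjustment over all genes. The members and lists were chosen with earlier results of these data known. By rule, values by array were given for the 12 members with the smallest p and for those whose bright probe sets (mean of at least 5) differ in sign. In the other cell cycle lists and the BMP response genes the 4 genes with the smallest p were named, beside ID1, ID3 and SMAD6. CDT1, GINS4 and RRM1 by array and the promoters printed were chosen after values were seen. The alternatives were a replicate block, 4 rescalings of the arrays, minimum means of 5 and 7, 3 rules for probe sets, an intensity trend with a robust prior, and each array left out. Same-numbered samples did not deviate together (r across genes 0.0038, 0.046 and -0.021), so the numbers were not taken as pairs. On data simulated for this comparison (18132 genes, independent noise), 91 of 100 genes changed by 0.5 and 100 of 100 changed by 1 were recovered, with 8 false calls. Changes smaller than 0.5, as all members' differences were, and the weaker response of dim probe sets were not simulated. The number of arrays limits precision. Figures were drawn with matplotlib 3.10.9.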

Additional observations from a re-analysis of the deposited data

How the results depend on the processing

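The replicate block left 94 genes called instead of 124 and 0 members (smallest limma adjusted p 0.185); with balanced numbers it cannot move a difference. Without any 1 array, 54 to 78 genes and 0 members were called, the members' median was 0.042 to 0.076 with 28 to 33 higher, the other replication genes' median 0.036 to 0.069 and the G2 and mitosis genes' 0.020 to 0.061. In 28 members the sign held without each array in turn (21 higher, 7 lower); in the other 14 it turned, with differences of GINS3 -0.061 to 0.068, RPA1 -0.14 to 0.013, E2F2 -0.044 to 0.16, MCM6 -0.11 to 0.066, POLD1 -0.029 to 0.079, RFC3 -0.11 to 0.19, MCM10 -0.024 to 0.078, GINS2 -0.057 to 0.32, ORC1 -0.19 to 0.023, PRIM2 -0.081 to 0.19, FEN1 -0.083 to 0.15, CDC45 -0.023 to 0.098, RFC5 -0.0071 to 0.16 and E2F1 -0.040 to 0.14.

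Scaling to the hybridisation controls called 4577 genes and 15 members and gave medians of 0.27 (members), 0.24 (other replication genes) and 0.26 (G2 and mitosis genes); differences that turned were CDC6 0.10, DBF4 0.063, GINS3 0.19, ORC1 0.12, POLE 0.031, RFC4 0.11, LIG1 0.098, RPA1 0.16 and RPA3 0.17. Scaling to the poly-A controls called 17440 genes and 42 members, with medians of 0.67, 0.64 and 0.66; turned were CDC6 0.50, DBF4 0.46, GINS3 0.59, ORC1 0.52, POLE 0.43, RFC4 0.51, LIG1 0.50, RPA1 0.55, RPA3 0.57 and CCNE2 0.36. Both scalings shift every gene alike. MCM6 turned to -0.0062 with quantile normalisation and -0.0089 with median centring. A minimum mean of 5 called 267 genes and left 17 members, 14 higher, and a G2 and mitosis median of 0.10. A minimum of 7 called 247 genes and 1 member, left 3 members, all 3 higher, gave the other replication genes -0.12 and left no G2 and mitosis gene. The mean over probe sets gave medians of 0.042 (members) and 0.023 (G2 and mitosis genes) and turned MCM2 -0.017, CDC7 -0.059, GINS4 -0.024, RFC4 0.055, RFC5 -0.013, FEN1 -0.015, LIG1 0.0026 and RPA1 0.011. Every probe set on its own gave 196 calls, a members' median of 0.053 and 69 higher. Leaving out shared probes turned MCM7 -0.041, GINS4 -0.23, FEN1 -0.058 and CCNE1 -0.13. The trend with a robust prior called 285 genes. Causes were not tested, except that filters test fewer genes and refit the spread that limma shares between genes, and probe set rules read other probe sets. The SE of MCM3 was 0.086 without a filter, 0.077 at a minimum of 5 and 0.068 at a minimum of 7. Dim signal limits 18 members.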
